A study of Arabidopsis thaliana with 12 samples.

Results

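In Arabidopsis thaliana seedlings that carry a pot1b mutation, 71 of 16485 genes at or above the minimum level were lower than in the wild type with Zeocin and without it. They were chosen on the measured values. A gene entered when its mean in the wild type was at least 3 CPM (counts scaled to a common total over nuclear genes, identifiers AT1G to AT5G) in each treatment, when the ratio of means, (pot1b + 0.5)/(WT + 0.5), was at most 0.67 in each treatment, and when every pot1b library lay below every WT library. Of 85 genes that met the level and the ratio, 75 also had no overlap between libraries, and 4 of these were left out by identifier. The level, ratio and overlap criteria for a single treatment were met by 1.55% of the 16485 genes under Zeocin and by 2.52% under mock. Because the difference between pot1b and WT chose these genes, it is given as a description and without a test.

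The groups were pot1b Zeocin, WT Zeocin, pot1b mock and WT mock, with 3 libraries each. All were whole seedlings, 6 days old and grown on MS medium. WT is Col-0, and the pot1b allele is not given in the labels. Zeocin, which belongs to the bleomycin drugs and cuts DNA, was given at 20 µM for 6 h, and mock seedlings were kept without it. Whether the replicates were grown separately is not stated, so p-values reflect only how far these samples scatter, and that scatter may be technical. In RNA of whole seedlings, fewer cells of a type and less RNA per cell cannot be told apart.

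POT1B encodes a relative of the telomere protein POT1a. The gene itself (AT5G06310) met the level and the ratio but not the criterion of no overlap. It had 3.99, 1.7 and 10.2 CPM in pot1b Zeocin against 8.18, 8.20 and 13.2 CPM in WT Zeocin, and 3.35, 2.52 and 6.53 CPM in pot1b mock against 7.53, 7.07 and 7.65 CPM in WT mock. Replicate 3 was the highest pot1b library in each treatment, and under Zeocin it lay above 2 of the WT libraries. POT1B overlaps another gene, and the position of the mutation is not given, so that these counts check the genotype labels only in part. The libraries held between 9607269 and 24587168 counts each, and nuclear genes received 3961261 to 10490315 of them. A count of 3 in a library corresponds to 0.286 to 0.757 CPM.

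By their annotated roles, 15 of the 71 genes belong to the control of seedling growth by light and hormones. These role groups were made after the 71 genes were seen. The share of such genes among all genes at the level was not counted, so the 15 cannot be set against a background. Phytochromes sense red and far-red light, and in shade the phytochrome-interacting factors (PIFs), a family of bHLH transcription factors, accumulate and raise genes for auxin synthesis, for homeodomain-leucine zipper proteins and for cell elongation. DELLA proteins such as GAI hold PIFs back until gibberellin removes them, and brassinosteroid acts on many of the same growth genes. PIFs bind the G-box (CACGTG) and the PBE-box (CACATG, read on the other strand as CATGTG).

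The promoters of 4 genes are shown for these boxes, as LNG1 and LNG2 are a pair of elongation genes, IAMT1 modifies auxin and BZIP61 holds both boxes. Each sequence is the 250 bases before the annotated start, 5′ to 3′ on the gene's strand, from the RefSeq assembly TAIR10.1, with the boxes in capitals. LNG1 and IAMT1 lie on chromosome 5 and LNG2 and BZIP61 on chromosome 3, all on the minus strand.
LNG1: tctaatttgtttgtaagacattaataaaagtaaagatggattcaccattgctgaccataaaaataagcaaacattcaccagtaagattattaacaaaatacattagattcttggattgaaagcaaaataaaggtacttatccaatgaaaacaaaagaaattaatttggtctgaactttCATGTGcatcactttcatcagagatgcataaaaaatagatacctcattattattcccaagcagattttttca
LNG2: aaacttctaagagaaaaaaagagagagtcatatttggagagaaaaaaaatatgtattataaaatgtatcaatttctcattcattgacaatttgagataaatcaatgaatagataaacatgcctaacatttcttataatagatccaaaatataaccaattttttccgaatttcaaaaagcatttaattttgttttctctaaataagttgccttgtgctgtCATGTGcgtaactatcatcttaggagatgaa
IAMT1: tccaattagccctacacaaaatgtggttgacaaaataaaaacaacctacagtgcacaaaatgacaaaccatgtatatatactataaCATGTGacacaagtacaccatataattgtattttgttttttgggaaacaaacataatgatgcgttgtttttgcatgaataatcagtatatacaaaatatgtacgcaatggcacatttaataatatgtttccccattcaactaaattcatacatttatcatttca
BZIP61: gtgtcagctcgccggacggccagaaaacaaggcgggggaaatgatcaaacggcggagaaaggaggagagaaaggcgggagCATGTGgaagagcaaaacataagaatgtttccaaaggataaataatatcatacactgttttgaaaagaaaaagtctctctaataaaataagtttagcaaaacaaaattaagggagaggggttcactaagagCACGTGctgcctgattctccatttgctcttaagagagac
In a window of 250 bases before to 50 after the start, read on both strands, the G-box was present in 12 of 71 genes (16.9%) and in 8.74% of the 16413 other genes at the level. The PBE-box was present in 18 (25.4%) and in 12.2% of the others. At least 1 of these boxes, which do not overlap in sequence, stood in 26 genes (36.6%) and in 19.6% of the others, and 4 genes had both. Among the light, hormone and growth genes, BEH4, AT3G17100, AT5G14920, IAMT1, LNG1 and LNG2 had a box. The rest of that group, including HB-2, FLP1, PIL2, RTFL21, GAI and AT4G34760, had neither. Other motifs were closer to their background or below it. The W-box core TTGACC was in 14.1% of the genes and 14.6% of the others, the evening element AATATCT in 15.5% and 11.6%, the auxin response elements TGTCTC in 9.86% and 13.3% and TGTCGG in 2.82% and 5.75%, GGNCCC in 7.04% and 9.87%, and AATNATT in 31.0% and 34.6%. These matches are a description of letters, not of binding.

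The log2 ratio of pot1b to WT over the 71 genes ran from -1.49 to -0.58 with a median of -0.71 under Zeocin, and from -1.90 to -0.59 with a median of -0.78 under mock. Over all 16485 genes the median was -0.03 under Zeocin and -0.04 under mock. The lower ratio was under mock in 48 genes and under Zeocin in 23. Just inside the threshold, the higher of a gene's 2 ratios was 0.6670 in ATSBT5.2, 0.6668 in BZIP61 and 0.6666 in GAI, and just outside it was 0.6701 in GRF5, 0.6702 in PMR6 and 0.6706 in AT1G33080. WT Zeocin replicate 1 was the highest library of its group for 46 of the 71 genes (64.8%) and for 49.0% of all genes at the level. Without that library the same criteria gave 59 genes, of which 47 were among the 71.

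**Figure D1:**
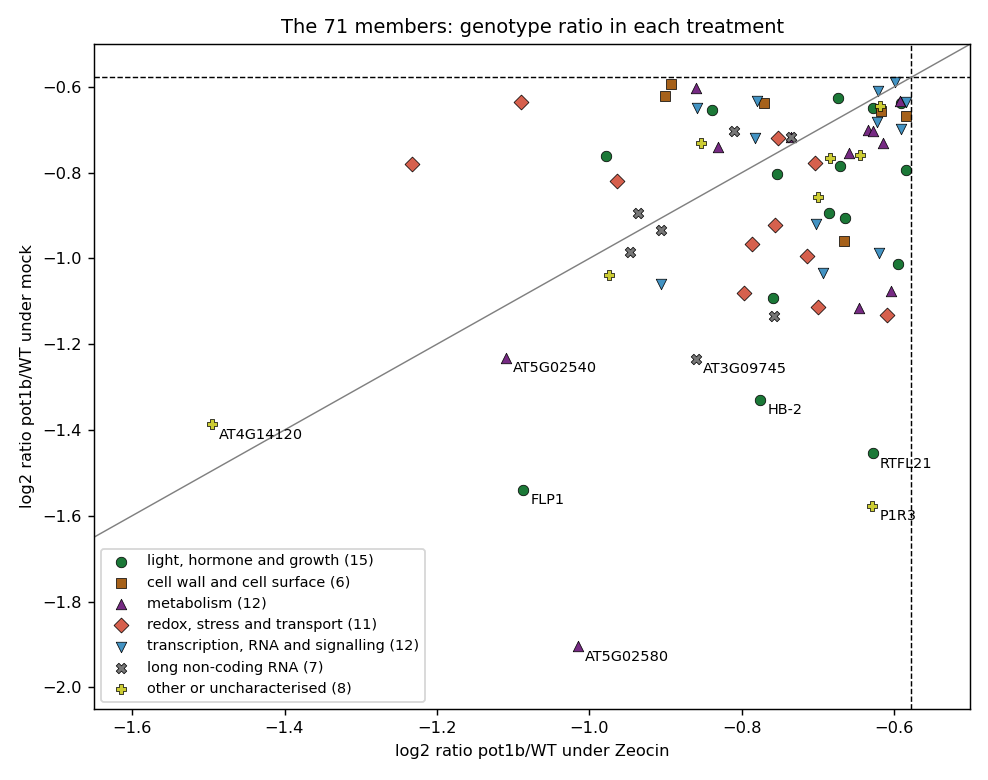
Log2 ratio of pot1b to WT under mock (vertical axis) against that under Zeocin (horizontal axis) for the 71 genes, each point being 1 gene with colour and shape for its role; dashed lines mark the ratio of 0.67 and the grey line equal ratios. AT5G02580, P1R3 and RTFL21 lie far below the grey line, with a lower ratio under mock than under Zeocin.

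Genes of light, hormone and growth control numbered 15, with median log2 ratios of -0.67 under Zeocin and -0.80 under mock. The transcription factor HB-2, a homeodomain-leucine zipper protein that rises rapidly in shade, had 7.98, 5.93 and 4.58 CPM in pot1b Zeocin against 12.7, 11.1 and 8.95 CPM in WT Zeocin, and 6.24, 6.47 and 4.52 CPM in pot1b mock against 16.9, 15.7 and 13.0 CPM in WT mock. The small protein FLP1, a relative of the flowering promoter FPF1, had 1.33, 2.33 and 1.28 CPM in pot1b Zeocin against 4.70, 3.01 and 4.48 CPM in WT Zeocin, and 0.809, 1.80 and 1.17 CPM in pot1b mock against 5.24, 3.53 and 5.06 CPM in WT mock. PIL2, a member of the PIF family that shares most of its length with the non-coding AT3G09745, had 5.15, 4.87 and 5.31 CPM in pot1b Zeocin against 11.8, 7.79 and 7.37 CPM in WT Zeocin, and 4.74, 3.59 and 4.36 CPM in pot1b mock against 10.49, 8.58 and 9.67 CPM in WT mock. In each of these genes the gap between genotypes was wider under mock than under Zeocin. The ratio was -0.78 under Zeocin and -1.33 under mock for HB-2, -1.09 under Zeocin and -1.54 under mock for FLP1 and -0.76 under Zeocin and -1.09 under mock for PIL2.

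RTFL21 encodes a small peptide of the ROTUNDIFOLIA4 family, whose members restrain cell proliferation when overproduced. It had 5.15, 4.66 and 3.30 CPM in pot1b Zeocin against 5.57, 6.70 and 8.82 CPM in WT Zeocin, and 3.12, 3.41 and 3.02 CPM in pot1b mock against 9.25, 10.1 and 9.45 CPM in WT mock. Its mock libraries stood far apart by genotype, while under Zeocin the highest pot1b library and the lowest WT library nearly met. GAI, the DELLA repressor of gibberellin response, had 46.5, 50.4 and 51.6 CPM in pot1b Zeocin against 66.7, 78.3 and 78.7 CPM in WT Zeocin, and 43.9, 55.2 and 51.6 CPM in pot1b mock against 84.9, 95.2 and 82.1 CPM in WT mock. The auxin-responsive SAUR gene AT4G34760 had 3.66, 4.66 and 4.58 CPM in pot1b Zeocin against 9.40, 5.602 and 6.32 CPM in WT Zeocin, and 4.28, 4.85 and 4.69 CPM in pot1b mock against 10.2, 7.57 and 9.45 CPM in WT mock. SAUR proteins promote acid growth of the cell wall. LNG1 and LNG2, which promote elongation of cells along the long axis of leaves, had log2 ratios of -0.75 under Zeocin and -0.80 under mock and of -0.59 under Zeocin and -0.64 under mock.

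The remaining 7 genes of this group were lower by similar amounts. IAMT1, which methylates the auxin indole-3-acetic acid, had log2 ratios of -0.59 under Zeocin and -1.01 under mock. GATA2, a transcription factor that promotes light-grown development of seedlings, had -0.98 under Zeocin and -0.76 under mock. BEH4, of the BES1 family of brassinosteroid factors, had -0.63 under Zeocin and -0.65 under mock, and AT3G17100, an atypical bHLH protein of the AIF group, had -0.67 under Zeocin and -0.63 under mock. The gibberellin-regulated genes AT5G14920 and AT2G14900 had -0.67 under Zeocin and -0.79 under mock, and -0.69 under Zeocin and -0.89 under mock. EOL2, a relative of the ethylene-synthesis regulator ETO1, had -0.84 under Zeocin and -0.65 under mock. GATA2 and EOL2 were among the genes with the lower ratio under Zeocin.

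**Figure D2:**
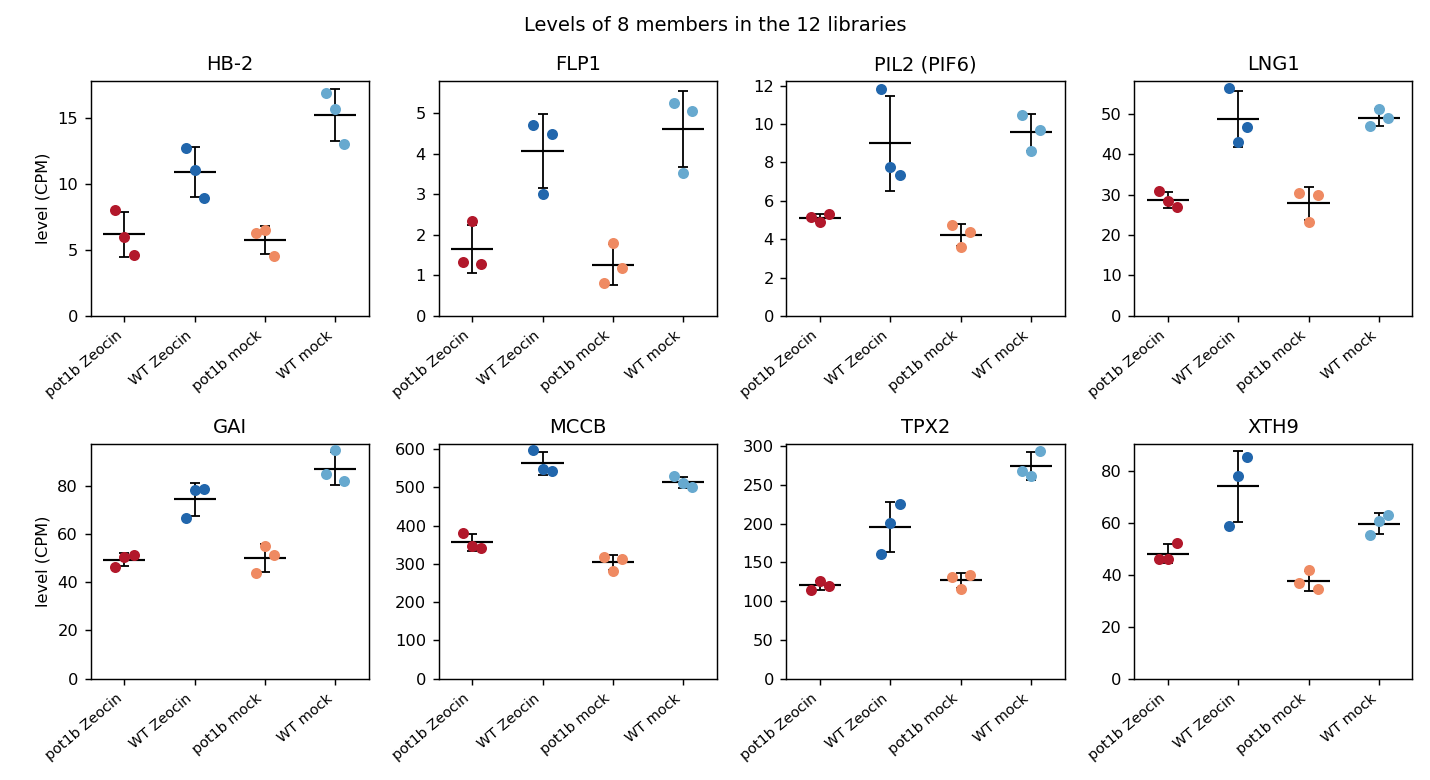
Level in CPM on a linear axis for 8 of the 71 genes in the 12 libraries, with pot1b left of WT under Zeocin and then under mock; points are libraries, horizontal lines group means and bars the SD. In every panel the 3 pot1b libraries lie below the 3 WT libraries of the same treatment, as the rule required.

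Genes of the same pathways outside the 71 were tested, since the rule did not choose them, although their lists were set with earlier results of these data known. The shade and PIF-responsive list held 24 genes, of which 17 that are neither among the 71 nor left out by the rule were tested. Of these, 4 fell and 0 rose in pot1b under Zeocin, and 10 fell and 0 rose under mock (edgeR's quasi-likelihood test, Benjamini-Hochberg adjusted p under 0.05). Over all genes tested, 11.1% were called under Zeocin, 4.51% lower and 6.55% higher, and 13.1% under mock, 5.83% lower and 7.25% higher. The list's median log2 fold change was -0.23 under Zeocin and -0.69 under mock. DESeq2 called 3 lower under Zeocin and 9 lower under mock, and 0 higher in either. At an unadjusted p under 0.05, 1 was higher and 6 lower under Zeocin, and 0 were higher and 14 lower under mock.

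HAT1, HAT2 and HAT3 are relatives of HB-2. HAT1 averaged 53.6 ± 3.12 CPM in pot1b Zeocin against 71.5 ± 8.17 CPM in WT Zeocin (log2 fold change -0.38, SE 0.09, edgeR adjusted p = 0.0094), and 37.9 ± 2.71 CPM in pot1b mock against 68.0 ± 4.43 CPM in WT mock (log2 fold change -0.81, SE 0.09, edgeR adjusted p = 2.1e-06; SD, n = 3 each). HAT2 averaged 68.9 ± 7.63 CPM in pot1b mock against 115 ± 2.31 CPM in WT mock (log2 fold change -0.70, SE 0.08, edgeR adjusted p = 3.1e-06), and 74.3 ± 6.12 CPM in pot1b Zeocin against 80.1 ± 3.04 CPM in WT Zeocin, where it was not called. The HAT2 means of the genotypes lay close together under Zeocin. PAR1, a shade-induced inhibitor of elongation, averaged 22.2 ± 3.00 CPM in pot1b Zeocin against 32.9 ± 5.81 CPM in WT Zeocin (log2 fold change -0.54, SE 0.14, edgeR adjusted p = 0.016), and 19.7 ± 2.52 CPM in pot1b mock against 35.4 ± 4.07 CPM in WT mock (log2 fold change -0.82, SE 0.14, edgeR adjusted p = 0.00029). BEE1, a bHLH factor raised by brassinosteroid, averaged 23.6 ± 0.704 CPM in pot1b Zeocin against 33.5 ± 5.86 CPM in WT Zeocin (log2 fold change -0.46, SE 0.12, edgeR adjusted p = 0.013), and 24.7 ± 1.51 CPM in pot1b mock against 40.8 ± 3.62 CPM in WT mock (log2 fold change -0.69, SE 0.11, edgeR adjusted p = 0.00016). YUC8, an auxin synthesis enzyme, fell under Zeocin (log2 fold change -0.47, SE 0.15, edgeR adjusted p = 0.045) and was not called under mock, with log2 fold change -0.42 and edgeR adjusted p = 0.059. IAA29, an auxin response repressor, fell under mock (log2 fold change -1.03, SE 0.24, edgeR adjusted p = 0.0043), and had a log2 fold change of 0.29 under Zeocin without a call. HFR1, HAT3, PAR2, CKX5 and BIM2 also fell under mock, by 0.50 to 0.81 on the log2 scale.

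Leaving out single libraries moved these counts. The count lower under Zeocin was 2 without WT Zeocin replicate 2 and 2 without pot1b Zeocin replicate 2, and the count lower under mock was 7 without WT mock replicate 1, 7 without pot1b mock replicate 3 and 13 without WT Zeocin replicate 1. Without that library 1 gene of the list was higher under Zeocin. Under Zeocin the call of HAT1 was lost without pot1b Zeocin replicate 2, that of PAR1 without WT Zeocin replicate 2 or 3 or pot1b Zeocin replicate 1 or 2, and that of YUC8 without any 1 library other than WT Zeocin replicates 1 and 3 and pot1b Zeocin replicate 1. Under mock the call of HFR1 was lost without WT mock replicate 1 or 2 or pot1b mock replicate 1 or 3, that of HAT3 without WT mock replicate 1 or 2 or pot1b mock replicate 3, and that of PAR2 without WT mock replicate 1, pot1b mock replicate 2 or 3 or pot1b Zeocin replicate 1 or 2. DESeq2 did not call YUC8 under Zeocin or PAR2 under mock. CKX5 and BIM2 overlap another gene.

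**Figure D3:**
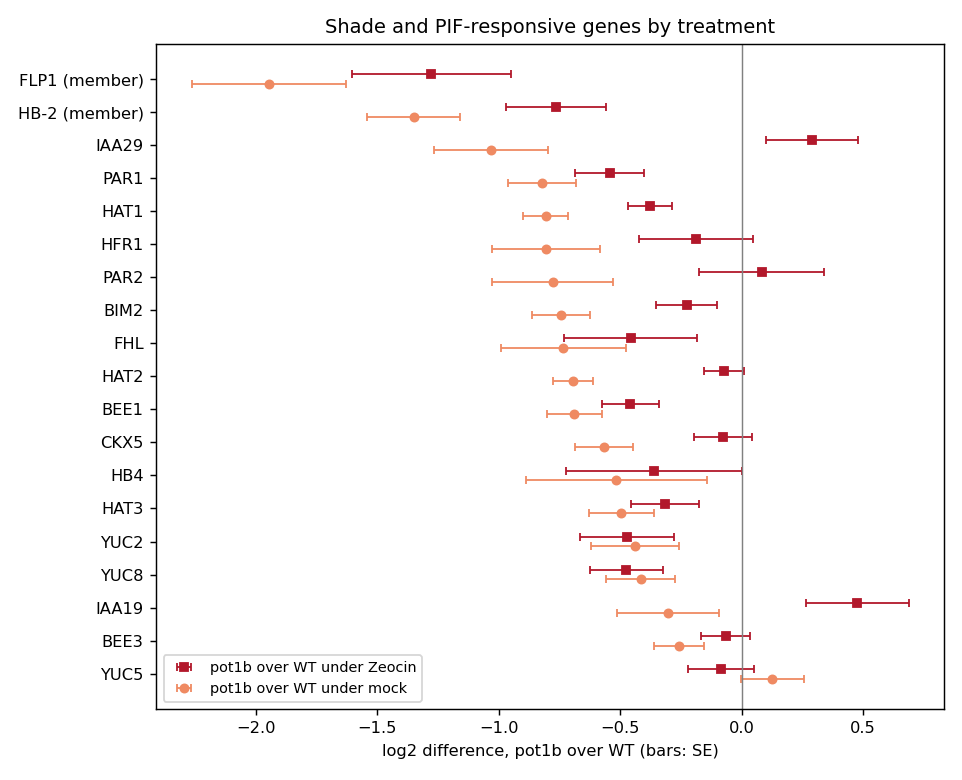
Log2 difference of pot1b over WT from edgeR for the tested shade and PIF-responsive genes, under Zeocin (squares) and under mock (circles), with bars of 1 SE. Most mock points lie left of 0; HB-2 and FLP1, marked as members of the 71, were chosen by the rule and carry no test.

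Of 15 tested light receptors and PIFs outside the 71, 5 fell and 0 rose under Zeocin, and 3 fell and 0 rose under mock. The list's medians were -0.23 and -0.07. DESeq2 called 3 lower under Zeocin and 3 under mock; 0 were higher in either treatment by DESeq2 or at an unadjusted p under 0.05. PHYA, the far-red light receptor, averaged 273 ± 11.3 CPM in pot1b Zeocin against 401 ± 37.6 CPM in WT Zeocin (log2 fold change -0.53, SE 0.08, edgeR adjusted p = 0.00013), and 316 ± 4.89 CPM in pot1b mock against 464 ± 5.06 CPM in WT mock (log2 fold change -0.52, SE 0.08, edgeR adjusted p = 9.1e-05). PHYB, the main red light receptor, averaged 66.9 ± 5.65 CPM in pot1b Zeocin against 84.8 ± 7.49 CPM in WT Zeocin (log2 fold change -0.31, SE 0.09, edgeR adjusted p = 0.031), and 47.5 ± 3.48 CPM in pot1b mock against 82.6 ± 6.17 CPM in WT mock (log2 fold change -0.75, SE 0.09, edgeR adjusted p = 4.8e-06). PIF3, PIF5 and PIF1 fell under Zeocin by 0.42, 0.41 and 0.50 on the log2 scale, and PIF4 fell by 0.61 under mock. The count under Zeocin was 3 without WT Zeocin replicate 2, 3 without pot1b Zeocin replicate 1 and 3 without pot1b Zeocin replicate 3, and the call of PHYB was lost each time. The call of PIF1, which overlaps another gene, was lost without any 1 of the WT mock libraries, WT Zeocin replicate 1 or 2, or pot1b Zeocin replicate 1 or 3. The call of PIF4 was lost without any 1 of the WT mock libraries or without pot1b mock replicate 1 or 2. DESeq2 did not call PHYB or PIF1 under Zeocin.

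Hormone families gave mixed counts. Of 12 brassinosteroid genes, 1 fell under Zeocin and 3 fell under mock, and 0 rose in either by edgeR, by DESeq2 or at an unadjusted p under 0.05. CPD, a synthesis enzyme, had log2 fold changes of -0.35 and -0.67, and the receptor gene BRI1 fell by 0.50 under mock. CPD overlaps another gene. The count lower under Zeocin was 2 without WT Zeocin replicate 1 and 2 without WT Zeocin replicate 2. Of 41 tested SAUR genes other than AT4G34760, 3 rose and 0 fell under Zeocin (0 lower by DESeq2 and 4 at an unadjusted p under 0.05), and 3 rose and 8 fell under mock. Under Zeocin 0 SAUR genes rose without pot1b Zeocin replicate 2 and 1 rose without WT Zeocin replicate 2. Without WT Zeocin replicate 1, 1 SAUR gene fell under Zeocin and 12 fell under mock. Of 8 gibberellin genes other than GAI, 0 were called under Zeocin by edgeR or DESeq2 and 3 were higher and 0 lower at an unadjusted p under 0.05; under mock 2 rose and 1 fell. Of 7 RTFL genes other than RTFL21, 0 were called under Zeocin by edgeR or DESeq2 (2 higher and 0 lower unadjusted), and 1 rose and 1 fell under mock (by DESeq2 1 rose and 0 fell). Among gibberellin genes, 2 rose under Zeocin without WT Zeocin replicate 3; under mock 1 rose without WT mock replicate 1 or pot1b mock replicate 3, and 0 fell without WT mock replicate 1 or 3 or pot1b mock replicate 1 or 2. Among RTFL genes, 1 rose under Zeocin without WT Zeocin replicate 1, and 0 fell under mock without WT mock replicate 1 or 2 or pot1b mock replicate 2 or 3.

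Genes annotated as metabolic enzymes made up 12 of the 71, with median log2 ratios of -0.65 under Zeocin and -0.74 under mock. AT5G02580 is placed among them by its product name alone, which was not checked against its sequence. The gene with the lowest ratio under mock was AT5G02580, annotated as an argininosuccinate lyase, with 2.16, 3.60 and 4.03 CPM in pot1b Zeocin against 11.1, 4.78 and 5.40 CPM in WT Zeocin, and 3.70, 2.16 and 1.34 CPM in pot1b mock against 9.44, 11.6 and 10.01 CPM in WT mock. WT Zeocin replicate 1 stood above the other 2 WT Zeocin libraries. Its neighbour AT5G02540, an enzyme with an NAD(P)-binding fold and with 3 genes between, had 25.9, 24.4 and 25.3 CPM in pot1b Zeocin against 60.2, 50.3 and 54.2 CPM in WT Zeocin, and 29.6, 28.8 and 29.6 CPM in pot1b mock against 72.2, 68.2 and 68.3 CPM in WT mock. In AT5G02540 the libraries of each group lay close together and the genotypes far apart. ADS1, a delta-9 fatty acid desaturase, had 5.15, 4.45 and 3.11 CPM in pot1b Zeocin against 5.92, 6.15 and 8.69 CPM in WT Zeocin, and 4.28, 3.06 and 3.52 CPM in pot1b mock against 8.01, 8.58 and 8.66 CPM in WT mock. AT1G42430, annotated as an inactive purple acid phosphatase-like protein, had 10.47, 8.69 and 9.15 CPM in pot1b Zeocin against 14.8, 16.0 and 13.0 CPM in WT Zeocin, and 12.4, 8.27 and 10.9 CPM in pot1b mock against 21.9, 25.2 and 20.9 CPM in WT mock. The log2 ratio of AT5G02540 was -1.11 under Zeocin and -1.23 under mock, and that of ADS1 was -0.65 under Zeocin and -1.11 under mock.

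Of these enzymes, 3 take part in the breakdown of amino acids. THA1, which splits threonine into glycine and acetaldehyde, had 495, 519 and 537 CPM in pot1b Zeocin against 938, 733 and 728 CPM in WT Zeocin, and 630.1, 564 and 586 CPM in pot1b mock against 1003, 981 and 916 CPM in WT mock. MCCB, the beta subunit of 3-methylcrotonyl-CoA carboxylase in leucine breakdown, had 382, 348 and 340.3 CPM in pot1b Zeocin against 598, 548 and 543 CPM in WT Zeocin, and 317, 282 and 313 CPM in pot1b mock against 529, 510.2 and 499 CPM in WT mock. ETFQO, which passes electrons from that pathway to ubiquinone, had 164, 147 and 157 CPM in pot1b Zeocin against 251, 223 and 243 CPM in WT Zeocin, and 151, 148 and 145 CPM in pot1b mock against 249, 254 and 234 CPM in WT mock. Levels of these 3 varied little within a group, apart from WT Zeocin replicate 1 for THA1.

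Other leucine breakdown genes, listed after the values of the 71 were seen and therefore not tested, had smaller differences on the log2 scale of the fit. The carboxylase's other subunit MCCA had -0.43 under Zeocin and -0.56 under mock, against -0.62 and -0.71 for MCCB. BCDH-BETA1 of the branched-chain dehydrogenase had -0.41 and -0.56, its partner BCE2 -0.23 and -0.38, IVD -0.17 and -0.31, and the transaminase BCAT2 -0.29 and -0.29. ETFALPHA and ETFBETA, the flavoprotein that feeds ETFQO, had 0.02 and 0.05 under Zeocin and -0.00 and -0.02 under mock. HML1, which splits the last intermediate, had 0.04 and -0.10. The median of the 8 genes outside the 71 was -0.20 under Zeocin and -0.30 under mock.

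The other enzymes were TSB2, a tryptophan synthase subunit, with -0.86 under Zeocin and -0.60 under mock; PFK2, a phosphofructokinase, with -0.83 under Zeocin and -0.74 under mock; a methyltransferase AT4G00750, with -0.63 under Zeocin and -0.70 under mock; and AT4G00040 of the chalcone synthase family, with -0.59 under Zeocin and -0.63 under mock. AT5G01210, an acyltransferase, had 159.9, 189 and 164 CPM in pot1b Zeocin against 337, 276 and 242 CPM in WT Zeocin, and 198, 205 and 186 CPM in pot1b mock against 312, 349.9 and 307 CPM in WT mock. The long non-coding RNA AT5G01215 covers the same stretch on the opposite strand, and its counts were within 2 of those of AT5G01210 in every library, so that the pair is 1 measurement: AT5G01215 had 159.9, 189 and 164 CPM in pot1b Zeocin against 337, 276 and 241 CPM in WT Zeocin, and 198, 205 and 186 CPM in pot1b mock against 312, 349.9 and 307 CPM in WT mock.

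Redox, stress and transport genes numbered 11, with median log2 ratios of -0.76 under Zeocin and -0.92 under mock. TPX2, a thioredoxin-dependent peroxidase that removes peroxides, had 115, 126 and 119 CPM in pot1b Zeocin against 161, 200.4 and 225 CPM in WT Zeocin, and 131, 116 and 133 CPM in pot1b mock against 268, 261 and 294 CPM in WT mock. GLYI7, of the glyoxalase family that detoxifies methylglyoxal, had 41.6, 44.9 and 48.3 CPM in pot1b Zeocin against 72.1, 74.2 and 74.4 CPM in WT Zeocin, and 56.2, 62.7 and 62.6 CPM in pot1b mock against 100.3, 102 and 110.4 CPM in WT mock. PHO1, which exports phosphate into the xylem of the root, had 52.7, 51.1 and 46.3 CPM in pot1b Zeocin against 96.3, 85.3 and 72.3 CPM in WT Zeocin, and 61.3, 67.8 and 68.2 CPM in pot1b mock against 112, 108 and 105 CPM in WT mock. The means of all 3 were lower with Zeocin than with mock in each genotype. AT4G27450, annotated as aluminium-induced, had 91.8, 83.3 and 101 CPM in pot1b Zeocin against 155, 150.0 and 162 CPM in WT Zeocin, and 103, 114 and 124 CPM in pot1b mock against 209.5, 205 and 231 CPM in WT mock. AT4G37220, of the cold acclimation family WCOR413, had 14.0, 15.0 and 17.8 CPM in pot1b Zeocin against 21.6, 28.6 and 31.6 CPM in WT Zeocin, and 20.9, 16.7 and 19.6 CPM in pot1b mock against 40.4, 34.6 and 38.2 CPM in WT mock. AT2G28780, annotated as part of an efflux pump, had 2.83, 5.93 and 5.86 CPM in pot1b Zeocin against 13.1, 11.5 and 11.8 CPM in WT Zeocin, and 7.17, 7.37 and 8.71 CPM in pot1b mock against 14.0, 13.1 and 13.8 CPM in WT mock. Its lowest library was pot1b Zeocin replicate 1.

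AT5G47590, a small heat shock protein, had 3.16, 4.66 and 5.67 CPM in pot1b Zeocin against 9.40, 7.65 and 7.503 CPM in WT Zeocin, and 5.90, 4.85 and 3.85 CPM in pot1b mock against 11.2, 10.9 and 10.46 CPM in WT mock. HIPP27, a metal-binding protein, had 2.49, 3.18 and 3.48 CPM in pot1b Zeocin against 6.27, 6.42 and 6.58 CPM in WT Zeocin, and 3.47, 1.62 and 3.52 CPM in pot1b mock against 5.53, 4.04 and 6.75 CPM in WT mock. HIPP27 came to fewer than 7 CPM in every library, and its highest pot1b and lowest WT mock library were 3.52 and 4.04 CPM. The glutathione transferase GSTF3 had log2 ratios of -1.09 under Zeocin and -0.64 under mock, the aquaporin BETA-TIP of the vacuole membrane -0.71 under Zeocin and -1.0 under mock, and AT3G54510, of the family of the dehydration-responsive ERD4, -0.61 under Zeocin and -1.13 under mock. Reads of TPX2 and GSTF3 can be split with near-identical copies in the same families, so their values are uncertain.

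Wall and surface proteins made up 6 of the genes, with median log2 ratios of -0.72 under Zeocin and -0.65 under mock. FLA9, a fasciclin-like arabinogalactan protein, had 133, 123 and 117 CPM in pot1b Zeocin against 283, 205 and 211 CPM in WT Zeocin, and 147, 153 and 145 CPM in pot1b mock against 233, 228 and 223 CPM in WT mock. XTH9, which cuts and rejoins xyloglucan in growing walls, had 45.9, 46.0 and 52.2 CPM in pot1b Zeocin against 58.7, 77.7 and 85.3 CPM in WT Zeocin, and 36.8, 41.9 and 34.3 CPM in pot1b mock against 55.1, 60.6 and 63.1 CPM in WT mock. AT4G16260, a glycosyl hydrolase, had 108, 111 and 101 CPM in pot1b Zeocin against 196, 179 and 172 CPM in WT Zeocin, and 143, 142 and 141 CPM in pot1b mock against 214, 231 and 219 CPM in WT mock. The libraries of AT4G16260 lay close together within groups, while WT Zeocin replicate 1 was the lowest WT Zeocin library for XTH9 and the highest for FLA9. The subtilisin-type protease ATSBT5.2, the gene nearest the threshold, had 9.81, 14.0 and 11.0 CPM in pot1b Zeocin against 20.4, 14.6 and 17.9 CPM in WT Zeocin, and 13.2, 14.7 and 13.9 CPM in pot1b mock against 21.6, 21.7 and 24.0 CPM in WT mock. ENODL8 had log2 ratios of -0.67 under Zeocin and -0.96 under mock and the GPI-anchored protein AT3G18050 -0.89 under Zeocin and -0.59 under mock. Of 22 other tested XTH genes, 2 rose and 3 fell under Zeocin, and 1 rose and 3 fell under mock. Under Zeocin 0 of them rose without WT Zeocin replicate 2 or pot1b Zeocin replicate 3, and 1 rose without any other library but WT mock replicate 1, WT Zeocin replicate 1 and pot1b Zeocin replicate 2; under mock 0 rose without pot1b mock replicate 1 or 3, and 2 rose without WT mock replicate 1 or WT Zeocin replicate 1.

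Transcription, RNA and signalling genes numbered 12, with median log2 ratios of -0.66 under Zeocin and -0.69 under mock. HEI10, a RING protein that promotes crossovers in meiosis, had 5.32, 7.42 and 6.04 CPM in pot1b Zeocin against 12.5, 11.2 and 12.8 CPM in WT Zeocin, and 3.93, 5.57 and 3.85 CPM in pot1b mock against 10.9, 8.84 and 9.78 CPM in WT mock. It overlaps MRD1 over 39.2% of its length, and MRD1 itself had log2 ratios of -0.78 under Zeocin and -0.56 under mock. AT5G61190, a zinc finger protein annotated as a putative endonuclease or glycosyl hydrolase, had 10.3, 8.26 and 12.1 CPM in pot1b Zeocin against 17.9, 15.3 and 14.0 CPM in WT Zeocin, and 7.51, 6.83 and 6.87 CPM in pot1b mock against 12.4, 10.6 and 9.67 CPM in WT mock. All its Zeocin libraries were above all its mock libraries in each genotype. The remaining log2 ratios were -0.69 under Zeocin and -1.03 under mock for the protein phosphatase 2C AT5G66080, -0.70 under Zeocin and -0.92 under mock for the PHD finger gene AT1G05835, -0.86 under Zeocin and -0.65 under mock for the calmodulin-binding IQD18 and -0.78 under Zeocin and -0.63 under mock for the WD40 gene AT4G34380. For the bZIP factors they were -0.62 under Zeocin and -0.99 under mock for bZIP52, -0.78 under Zeocin and -0.72 under mock for EEL and -0.58 under Zeocin and -0.64 under mock for BZIP61. WRKY45, a factor of the response to low phosphate, had -0.62 under Zeocin and -0.68 under mock, the polyadenylation factor FIP1[V] -0.59 under Zeocin and -0.70 under mock and the kinase AT4G01330 -0.62 under Zeocin and -0.61 under mock.

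Of 8 other or uncharacterised genes, AT4G14120 had the lowest ratio under Zeocin, -1.49 under Zeocin and -1.39 under mock. It had 5.98, 5.30 and 5.86 CPM in pot1b Zeocin against 8.88, 19.0 and 23.2 CPM in WT Zeocin, and 6.47, 8.27 and 7.37 CPM in pot1b mock against 17.1, 21.7 and 21.5 CPM in WT mock. WT Zeocin replicate 1 was far below the other WT libraries of that gene, which overlaps XTH15 over 16.8% of its length. P1R3 had 6.32, 5.30 and 4.39 CPM in pot1b Zeocin against 8.70, 7.79 and 9.08 CPM in WT Zeocin, and 5.20, 3.06 and 3.69 CPM in pot1b mock against 13.9, 12.9 and 11.8 CPM in WT mock, with ratios of -0.63 under Zeocin and -1.58 under mock. AT3G62570, a tetratricopeptide repeat protein, had 1.83, 3.81 and 2.38 CPM in pot1b Zeocin against 6.44, 6.56 and 4.21 CPM in WT Zeocin, and 3.12, 2.88 and 2.18 CPM in pot1b mock against 5.43, 7.32 and 5.62 CPM in WT mock. The remaining ratios were -0.85 under Zeocin and -0.73 under mock for AT2G47440, also a tetratricopeptide repeat protein, -0.70 under Zeocin and -0.86 under mock for the remorin AT1G67590, -0.68 under Zeocin and -0.77 under mock for AT2G41750, -0.64 under Zeocin and -0.76 under mock for AT5G16030 and -0.62 under Zeocin and -0.64 under mock for AT1G13670.

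Long non-coding RNAs made up 7 of the 71 genes (9.86%) and 3.36% of all genes at the level, with median log2 ratios of -0.86 under Zeocin and -0.93 under mock. All 7 overlap a gene on the opposite strand, and the strand setting of the counting is not given, so reads from the shared stretch cannot be told apart. Over the annotated gene span, introns included, that stretch is 13.2% of AT1G05333, 57.6% of AT5G01595 and most or all of the others. The shared part of their exons was not measured. AT5G01595 had 258, 234 and 268 CPM in pot1b Zeocin against 502, 435 and 488 CPM in WT Zeocin, and 281, 243 and 271 CPM in pot1b mock against 512, 489 and 519.7 CPM in WT mock, and it overlaps FER1, a ferritin gene left out by the rule. AT1G08803, which lies within TPX2, had 22.4, 28.2 and 26.7 CPM in pot1b Zeocin against 38.8, 45.1 and 47.9 CPM in WT Zeocin, and 25.1, 22.1 and 27.0 CPM in pot1b mock against 43.7, 59.1 and 61.7 CPM in WT mock. AT3G09745, which covers most of PIL2, had 3.66, 4.24 and 4.21 CPM in pot1b Zeocin against 10.4, 6.83 and 5.92 CPM in WT Zeocin, and 3.47, 2.88 and 3.69 CPM in pot1b mock against 9.63, 7.32 and 8.66 CPM in WT mock; its counts were within 11 of those of PIL2 in every library. AT1G05333, which overlaps BETA-TIP, had 2.83, 2.97 and 2.2 CPM in pot1b Zeocin against 5.57, 4.24 and 6.98 CPM in WT Zeocin, and 2.66, 3.06 and 3.85 CPM in pot1b mock against 6.10, 7.32 and 6.97 CPM in WT mock. It also shares 89.0% of its length with AT1G17820 on the same strand, which had 0 counts. AT1G04433, which lies within AT1G05835, had 4.65, 3.60 and 5.49 CPM in pot1b Zeocin against 10.8, 8.20 and 8.69 CPM in WT Zeocin, and 3.24, 3.41 and 4.02 CPM in pot1b mock against 7.05, 8.33 and 5.74 CPM in WT mock. The log2 ratio of AT1G08803 was -0.76 under Zeocin and -1.13 under mock, against -0.70 under Zeocin and -1.11 under mock for TPX2. AT4G04455 lies entirely within GRH1, an F-box gene outside the 71 with log2 ratios of -0.56 under Zeocin and -0.75 under mock, and had ratios of -0.81 under Zeocin and -0.70 under mock. In all, 32 of the 71 genes (45.1%) overlapped another gene, against 36.1% of all genes at the level.

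Per kilobase of exon, the highest WT levels were those of AT5G01595 with 1860 CPM per kb, THA1 with 421, TPX2 with 318, MCCB and AT1G08803 with 246 each, FLA9 with 198, AT5G01210 and AT5G01215 with 169, AT4G16260 with 140 and AT4G27450 with 136. AT5G01595, AT1G08803 and AT5G01215 overlap FER1, TPX2 and AT5G01210 on the opposite strand. Their levels may therefore hold reads of those genes.

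The response to Zeocin was tested as the mean over both genotypes, a contrast that in this balanced design is orthogonal to the differences between genotypes that the rule used. Of the 71 genes, 13 fell and 2 rose with Zeocin (15 genes, 21.1%; edgeR's quasi-likelihood test, adjusted over 19596 genes). Over all genes tested, 10.6% were called, 5.1% lower and 5.45% higher. The shares are not like for like. The rule's criteria of level and of no overlap between libraries favour genes with little scatter, which are called more easily in any contrast. The 19596 genes did not have to meet those criteria, and how far this raised the share of the 71 was not tested. The median log2 fold change of the 71 was -0.09, against -0.00 over all genes, and 49 of the 71 were below 0. The 13 that fell include AT5G01210 and AT5G01215, whose counts nearly match in every library, so that 1 measurement is counted as 2 genes. Among the 39 genes that overlap no other gene, 7 fell and 2 rose. DESeq2 called 13 lower and 1 higher.

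Of the 11 redox, stress and transport genes, 6 fell, and their median was -0.43. GLYI7 had a log2 fold change of -0.52 (SE 0.06, edgeR adjusted p = 7.4e-07), AT2G28780 of -0.49 (SE 0.13, edgeR adjusted p = 0.019), AT4G27450 of -0.44 (SE 0.06, edgeR adjusted p = 1.3e-05), AT4G37220 of -0.44 (SE 0.10, edgeR adjusted p = 0.0039), PHO1 of -0.43 (SE 0.06, edgeR adjusted p = 4.1e-05) and TPX2 of -0.34 (SE 0.07, edgeR adjusted p = 0.0039). In metabolism 4 of 12 fell, with a median of -0.12. AT1G42430 had -0.45 (SE 0.11, edgeR adjusted p = 0.0082), AT5G02540 -0.34 (SE 0.06, edgeR adjusted p = 0.00057), THA1 -0.29 (SE 0.06, edgeR adjusted p = 0.0016) and AT5G01210 -0.25 (SE 0.07, edgeR adjusted p = 0.019). In the wall and surface group 2 of 6 fell and 1 rose. AT4G16260 had -0.40 (SE 0.05, edgeR adjusted p = 3e-06), ATSBT5.2 -0.37 (SE 0.10, edgeR adjusted p = 0.02) and XTH9 0.28 (SE 0.09, edgeR adjusted p = 0.044). The long non-coding RNA that fell was AT5G01215, which shares its counts with AT5G01210.

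Of the 15 light, hormone and growth genes, 0 were called with Zeocin by edgeR or by DESeq2, and at an unadjusted p under 0.05 there was 1 higher and 1 lower; their median was -0.03. In transcription, RNA and signalling, AT5G61190 rose, with 0.47 (SE 0.12, edgeR adjusted p = 0.009), and the group's median was 0.12. Of the 8 uncharacterised genes, 0 were called by edgeR or DESeq2, and 0 had an unadjusted p under 0.05.

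**Figure D4:**
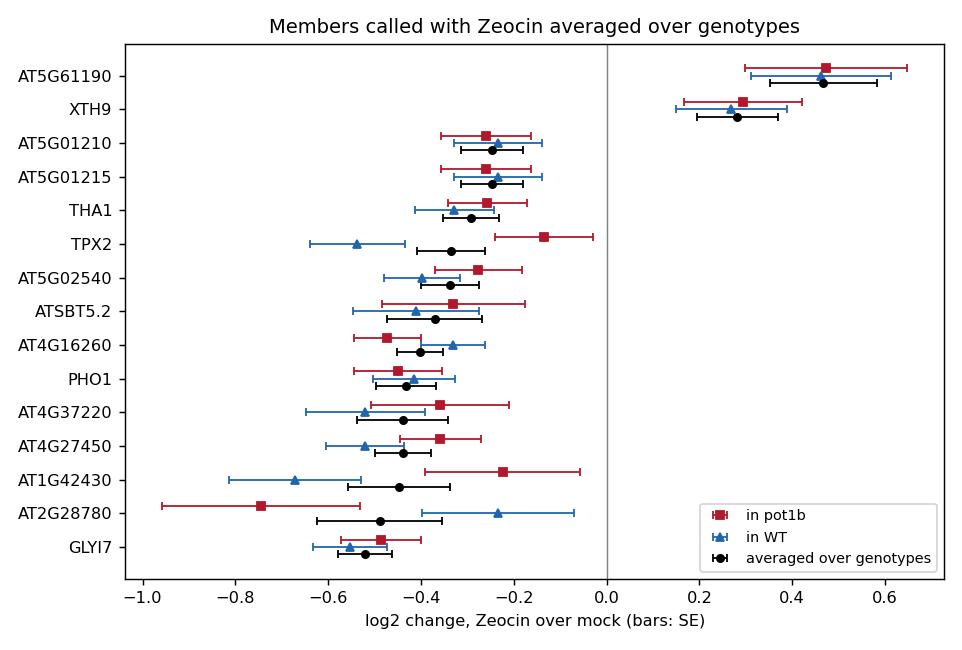
Log2 change of Zeocin over mock for the 15 called genes in pot1b, in WT and averaged over genotypes, with bars of 1 SE. AT5G61190 and XTH9 lie above 0 and the other 13 below it, with GLYI7 lowest on average at -0.52.

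In each genotype alone, fewer genes were called, and these tests share libraries with the rule. In pot1b 6 fell and 0 rose (median -0.06; 6 higher at an unadjusted p under 0.05 and 0 by DESeq2), where 6.7% of all genes were called, 3.0% lower and 3.7% higher. In WT 11 fell and 0 rose (median -0.16; 2 higher unadjusted and 0 by DESeq2), where 5.99% of all genes were called, 2.65% lower and 3.34% higher. Without WT Zeocin replicate 1, 19 fell in WT and 10 in pot1b, and 1 rose in each. Without pot1b mock replicate 3, 3 fell in pot1b. The call of XTH9 was lost by DESeq2 and without any 1 library other than pot1b mock replicate 2 or WT Zeocin replicate 1, with an adjusted p of up to 0.126. The call of ATSBT5.2 was lost without any of 5 single libraries (WT mock replicate 3, pot1b mock replicate 2, WT Zeocin replicate 2, pot1b Zeocin replicate 1 or 3), that of AT5G01210 without any of 4 (WT mock replicate 2, pot1b mock replicate 2, pot1b Zeocin replicate 1 or 3) and that of AT2G28780 without replicate 3 of pot1b mock or replicate 1 of pot1b Zeocin.

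On the chromosomes, 21, 8, 11, 15 and 16 of the 71 genes lay on chromosomes 1 to 5, against 26.4%, 15.4%, 19.7%, 15.2% and 23.3% of all genes at the level. The shares of the 71 were 29.6%, 11.3%, 15.5%, 21.1% and 22.5%. The nearest of them to POT1B was AT5G02580, with 463 genes between. Besides AT5G02540 and AT5G02580, the nearest neighbours without overlap were AT5G66080 and HIPP27, and AT4G04455 and XTH9, each with 2 genes between.

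Marker genes of cell types moved with genotype in part, and their part in these results was not tested. The summed level of 5 leaf mesophyll genes was 24640 to 26280 CPM in pot1b Zeocin against 22470 to 25260 CPM in WT Zeocin, and 26840 to 29440 CPM in pot1b mock against 22820 to 23560 CPM in WT mock. That of 7 vascular genes was 145 to 152 CPM in pot1b Zeocin against 160 to 172 CPM in WT Zeocin, and 125 to 128 CPM in pot1b mock against 129 to 134 CPM in WT mock. That of 8 stomatal lineage genes was 53.4 to 58.5 CPM in pot1b Zeocin against 52.2 to 66.2 CPM in WT Zeocin, and 48.4 to 57.0 CPM in pot1b mock against 57.6 to 75.0 CPM in WT mock. The summed level of 6 root hair genes was 16.1 to 21.1 CPM in pot1b Zeocin against 14.4 to 17.5 CPM in WT Zeocin, and 19.7 to 23.7 CPM in pot1b mock against 17.1 to 18.9 CPM in WT mock. That of 8 endodermis genes overlapped between genotypes in both treatments, and 0 markers were at 0 in any group.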

How the data were processed

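The authors deposited raw read counts per gene for 12 libraries, made from ribosomal-RNA-depleted total RNA with a stranded kit, per the labels' protocols. Per the submitters' processing notes, Trim Galore, HISAT2, featureCounts and limma were used with TAIR10; versions and the strand setting are not given in the sources used here. Of 34262 features, 32548 had nuclear identifiers (AT1G to AT5G), all matched to the RefSeq TAIR10.1 gene table, used for symbols, order, overlaps and promoters. Shares of a gene's length that overlap another gene are over its annotated span, introns included. Since the counts used TAIR10, no coordinates are given.

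Levels are CPM over nuclear identifiers. Tests used edgeR 4.0.16 in R 4.3.3: filterByExpr with a minimum count of 10 kept 19596 features, with TMM scaling and 1 robust quasi-likelihood model of the 4 groups; fold changes are on its log2 scale. Ratios use a pseudocount of 0.5. DESeq2 1.42.0, no filter, a replicate block and leaving out single libraries were alternatives. Members and lists were chosen with earlier results of these data known. Role groups and the leucine list were made after the members were seen. The SAUR list was cut to 78 genes by their annotated products, also after values were seen. Named genes are the 20 lowest mean ratios, those called with Zeocin (up to 10 per direction), the 10 highest WT levels, members of lists and genes nearest the threshold. P-values are Benjamini-Hochberg adjusted over all features tested. Counting error only is covered by the floors.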

Additional observations from a re-analysis of the deposited data

How the results depend on the processing

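The number of genes that met the rule, 71, ran from 59 to 99 without single libraries; it was 68 with totals over all features (54 shared with the 71), 60 with TMM-scaled totals (all 60 shared) and 92 with no pseudocount (all 71 among them). With Zeocin averaged over genotypes, 2 of the 71 genes rose and 1 to 2 did so without single libraries; DESeq2 called 1. The 13 that fell became 9 to 18 without single libraries, and 7 among genes that overlap no other gene, a smaller set by construction. In WT, 0 rose (0 to 1 without single libraries, 1 with the replicate block) and 11 fell (8 to 19 without single libraries, 17 with the replicate block). In pot1b, 0 rose (0 to 1) and 6 fell (3 to 10); the replicate block gave 9. The cause of these moves was not tested. Over all genes, 2068 were called with Zeocin, 1611 to 2567 without single libraries, 2680 with the replicate block and 1608 by DESeq2. Of pathway list genes outside the 71, 9 rose (7 to 9) and 10 fell (7 to 10) under Zeocin, and 15 rose (11 to 15) and 18 fell (13 to 24) under mock. DESeq2's size factors, no filter on low counts, library sizes over nuclear identifiers alone and, where not named above, DESeq2's test and the replicate block kept these counts within 1.5 times.

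Same-numbered libraries of different groups correlated, in deviations from group means, by -0.02 to 0.42 (median 0.19, 18 pairs), with 12 pairs over 0.1; the 36 pairs of other numbers ran from -0.36 to 0.28 (median -0.08), with 4 over 0.1. Of 12 libraries, 9 correlated best with their own number, a hint of pairing from the data. The labels name no shared batch, and not every same-number pair was over 0.1, so the counts in the report rest on the fit without the block. Counts of 3 per library set a floor of 0.286 to 0.757 CPM, which limits genes near the 3 CPM minimum.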

Other observations

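Among lists that held none of the 71 genes, cuticular wax, cutin and suberin synthesis moved in the other direction. Of 19 tested genes, 6 rose and 0 fell in pot1b under Zeocin (median log2 fold change 0.24), and 8 rose and 0 fell under mock (median 0.27; edgeR adjusted p under 0.05). DESeq2 called 5 and 7 higher and 0 lower, and 0 were lower at an unadjusted p under 0.05. LACS2, an acyl-CoA synthetase for cutin, averaged 35.0 ± 1.74 CPM in pot1b Zeocin against 23.8 ± 1.32 CPM in WT Zeocin (log2 fold change 0.59, SE 0.10, edgeR adjusted p = 0.0006), and 50.7 ± 3.57 CPM in pot1b mock against 26.1 ± 2.05 CPM in WT mock (log2 fold change 1.02, SE 0.10, edgeR adjusted p = 2.3e-07; SD, n = 3 each). LTPG1, a lipid transfer protein of the cuticle, averaged 128 ± 13.3 CPM in pot1b Zeocin against 92.8 ± 17.6 CPM in WT Zeocin (log2 fold change 0.51, SE 0.10, edgeR adjusted p = 0.0013), and 189.7 ± 10.2 CPM in pot1b mock against 106 ± 3.53 CPM in WT mock (log2 fold change 0.88, SE 0.10, edgeR adjusted p = 1.2e-06), and it overlaps another gene. The wax gene CER3 rose under mock (log2 fold change 0.74, SE 0.07, edgeR adjusted p = 2.9e-07) and was not called under Zeocin (log2 fold change 0.20, adjusted p = 0.11). Without single libraries, 5 to 6 rose under Zeocin and 5 to 8 under mock, with 5 without WT mock replicate 3 or pot1b mock replicate 1.

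Of 10 nitrate uptake and assimilation genes, 3 rose and 0 fell under Zeocin (0 lower by DESeq2 or at an unadjusted p under 0.05), and 5 rose and 1 fell under mock; 2 fell under mock without WT Zeocin replicate 1 and with the replicate block. The high-affinity transporter NRT2.1 averaged 13.4 ± 0.756 CPM in pot1b Zeocin against 6.39 ± 1.56 CPM in WT Zeocin (log2 fold change 1.13, SE 0.17, edgeR adjusted p = 0.00015), and 13.8 ± 1.25 CPM in pot1b mock against 6.80 ± 1.19 CPM in WT mock (log2 fold change 1.11, SE 0.17, edgeR adjusted p = 6.7e-05). The transporter NRT1.7, which moves nitrate out of old leaves, averaged 178 ± 7.88 CPM in pot1b Zeocin against 127 ± 11.3 CPM in WT Zeocin (log2 fold change 0.52, SE 0.08, edgeR adjusted p = 9e-05), and 195 ± 13.1 CPM in pot1b mock against 118 ± 3.98 CPM in WT mock (log2 fold change 0.77, SE 0.08, edgeR adjusted p = 2.8e-07). Of 15 expansin genes, 4 rose and 1 fell under Zeocin, and 3 rose and 0 fell under mock (0 lower by DESeq2 or unadjusted). The call of EXPA8, the 1 lower under Zeocin, was lost by DESeq2 and with no filter on low counts. It was also lost without any 1 library other than pot1b Zeocin replicate 1, and the replicate block gave 2 lower. Of 137 cytochrome P450 genes, 16 rose and 14 fell under Zeocin, and 22 rose and 7 fell under mock. Without pot1b Zeocin replicate 1, 2 or 3 the count lower under Zeocin was 9, 9 and 8. Under mock 14 rose without WT mock replicate 1, 13 without WT mock replicate 3 and 13 without pot1b mock replicate 1, and 3 fell without pot1b mock replicate 1 or 2.

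Of single marker genes, 3 of 5 leaf mesophyll genes and 1 of 4 root hair genes rose in pot1b under mock, by edgeR and by DESeq2, and 0 of either list were called or had an unadjusted p under 0.05 under Zeocin. Of 7 stomatal lineage genes, 1 fell under mock (2 unadjusted, 0 by DESeq2) and 0 were called under Zeocin (1 lower unadjusted, 0 by DESeq2). Of 7 endodermis genes, 1 fell in each treatment (by DESeq2 1 under Zeocin and 0 under mock). The stomatal call was lost without WT mock replicate 1 or 2 or any 1 of the pot1b mock libraries. It was also lost without WT Zeocin replicate 2 or pot1b Zeocin replicate 1 or 2. Without WT Zeocin replicate 1, 2 stomatal genes fell. The endodermis calls were lost under Zeocin without WT Zeocin replicate 2 or pot1b Zeocin replicate 1, and under mock without any 1 of the WT mock libraries or pot1b mock replicate 1 or 3. Of 7 vascular genes, 0 were called in either treatment by edgeR or DESeq2, with 1 lower under Zeocin and 0 under mock at an unadjusted p under 0.05.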
